A study of Mus musculus with 6 samples.

Results

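Genes of the cell cycle were followed in ribosome-bound RNA from the cerebellum of mice that lack the splicing factor RBM17 in Purkinje neurons. They are 10 of the 23420 rows of the deposited count table, listed by name and not by a threshold on their values: the cyclins Ccnd1, Ccnd2, Ccne1, Ccna2 and Ccnb1, the kinase Cdk1, the replication genes Mcm2, Pcna and Top2a, and the proliferation marker Mki67. All 10 had a row and all 10 were tested. The series holds 6 libraries from 4-week-old C57BL/6 mice, made from 10 ng of RNA each, with 1 cerebellum per library. The 3 control mice carried Pcp2-BacTrap and Rbm17 f/+, that is a floxed and a wild-type allele and no Cre. The 3 conditional knockout (cKO) mice carried Pcp2-BacTRAP, Pcp2-Cre and Rbm17 f/-, that is a floxed and a null allele. Both groups thus share the Pcp2-driven GFP-tagged ribosomal protein and a floxed Rbm17 allele, and Cre and the null allele occur in cKO alone, so differences are between these whole genotypes. Pcp2 drives expression in Purkinje cells, and the tagged ribosomes are pulled down with their RNA. Rbm17 itself stood at 41.6 ± 0.73 CPM (read counts scaled to the size of each library) in control and 25.9 ± 0.36 in cKO (SD, n = 3). The libraries held 140110897 to 160571518 gene counts each.

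Cells enter the cycle when D-type cyclins with CDK4 or CDK6 phosphorylate the retinoblastoma protein, which releases E2F factors and brings on cyclin E and the genes of DNA replication. Cyclin A and then cyclin B with CDK1 carry the cell through replication into mitosis, and a mitotic gene program peaks there. Purkinje neurons leave the cycle in the embryo, and the proliferating granule cell precursors of the mouse cerebellum are gone by weaning age. Glial progenitors and microglia can still divide. D-type cyclins and PCNA also have roles outside proliferation, PCNA in DNA repair, so their RNA alone does not mark a dividing cell.

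The proliferation marker Mki67 rose in cKO from a very low level, and no other member passed the test. Of the 10 members, 1 rose and 0 fell (edgeR quasi-likelihood test, adjusted p under 0.05 over 16067 genes), where 4.03% of all tested genes rose, 3.85% fell and 7.87% did either. The fitted log2 fold change was above 0 in 7 members, against 50.8% of all tested genes, and the median was 0.27. All 5 members of mitosis and late replication were among these 7, at low levels. The abundant members Ccnd1 and Pcna had narrow intervals around their control level. Members with all 3 cKO libraries above all 3 control libraries numbered 2, Mki67 and Ccna2, against 15.0% of all tested genes, and no member had them all below, where groups failed to overlap in either direction for 28.4% of genes. In bulk RNA such as this, fewer cells of a type and less RNA per cell cannot be told apart.

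**Figure D1:**
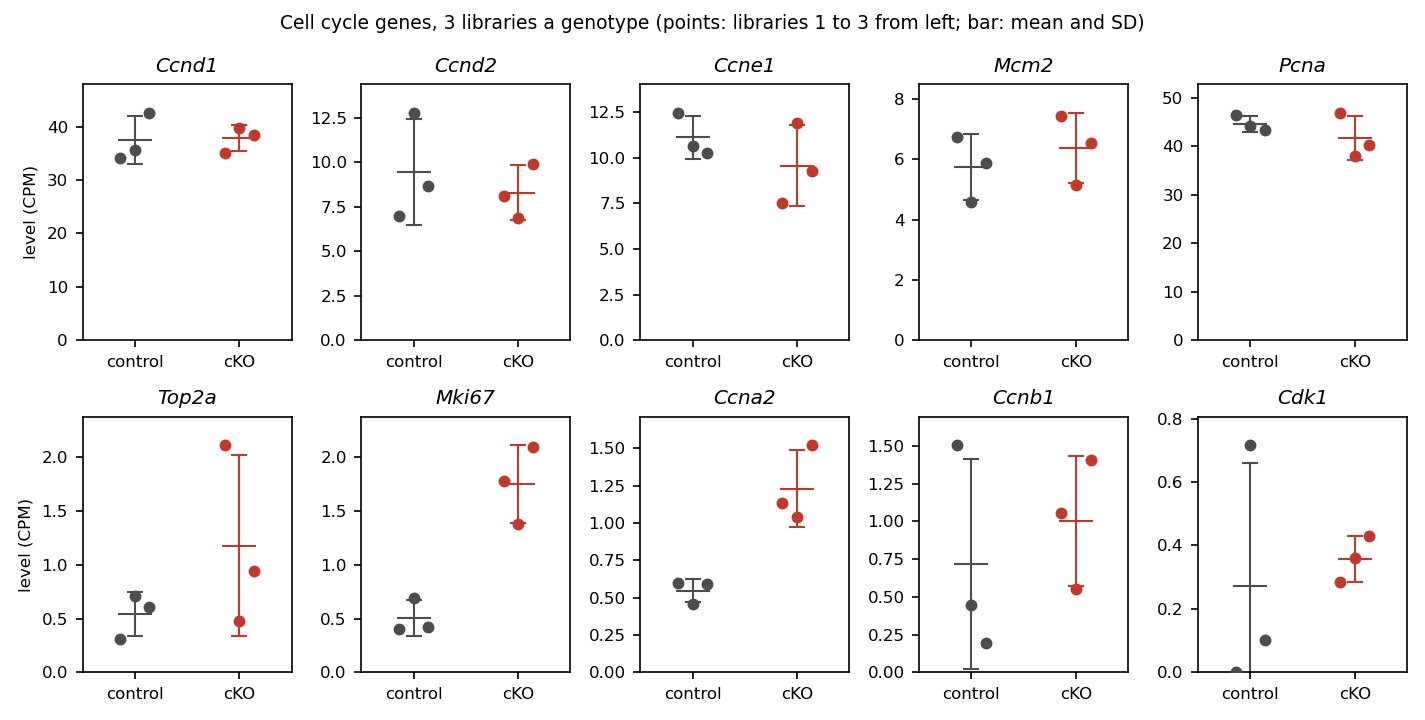
Level of each of the 10 genes in CPM (vertical axes start at 0 and differ between panels) in the 3 control and 3 cKO libraries, with mean and SD. Control and cKO separate in the panels of Mki67 and Ccna2, while the ranges of the groups overlap in the other 8 panels (the SD bar of Cdk1 in control is cut at 0).

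Mki67, which encodes the Ki-67 protein that coats mitotic chromosomes and is absent from resting cells, lies on chromosome 7 (mm10, 135689784 to 135716361, minus strand). It had 53, 100 and 58 counts in the control libraries and 289, 203 and 342 in the cKO libraries. On the scaled libraries these are 0.405, 0.695 and 0.418 CPM in control and 1.78, 1.38 and 2.1 CPM in cKO. Every cKO library was above every control library, and replicate 2 was the highest of the controls and the lowest of the cKO libraries. Group means were 0.506 ± 0.16 and 1.75 ± 0.36 CPM (SD, n = 3), and the fitted log2 fold change was 1.79 (SE 0.41, 95% interval 0.89 to 2.69, edgeR adjusted p = 0.026). The call was lost without control replicate 1, control replicate 3, cKO replicate 1 or cKO replicate 3 (adjusted p up to 0.12), and the log2 fold change ranged from 1.64 to 2.07 as single libraries were left out. The long non-coding gene Gm45240 lies antisense to Mki67, and the strand setting of the counting is not given in the sources used here.

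Spliced reads of Mki67 did not separate the groups. There were 2, 30 and 2 reads joining annotated exons in the control libraries, and 59, 12 and 31 in those of cKO. On scaled libraries control replicate 2, at 0.409 CPM, lay above cKO replicates 2 and 3, at 0.163 and 0.373 CPM, so the ranges overlapped. The log2 fold change was 1.42 (95% interval -1.03 to 3.87, edgeR adjusted p = 0.56 over 14706 genes). It was 3.78 without control replicate 2, 0.94 and 0.93 without control replicates 1 and 3, 0.77 without cKO replicate 1 and 2.31 with the replicate number as a block. These reads fell on 1, 4 and 2 of the 14 annotated introns in control and on 7, 6 and 4 in cKO, and in cKO replicate 3 a single intron held 58.1% of them. Per 100 gene counts, Mki67 gave 3.77, 30 and 3.45 spliced reads in control and 20.4, 5.91 and 9.06 in cKO, so the highest share was that of a control library. These shares compare with 71.6 to 81.3 for Pcna over the 6 libraries. The gene has a long union of exons, 10061 bp, for its 14 introns.

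Promoter sequences were matched in RefSeq (GRCm38.p6) for 7 of the 10 members: Mki67, Top2a, Ccnb1, Ccne1, Cdk1, Mcm2 and Pcna. Genes of late cycle phases are known to carry CCAAT boxes and a cell cycle homology region (CHR) near the start site, and genes of replication carry E2F sites. The 150 bases before the start site are shown for the member that rose (Mki67), for a pair of mitotic and late replication members that did not pass the test (Cdk1 and Top2a) and for an abundant member with a narrow interval (Pcna). Capitals mark CCAAT, the CHR letters TTTGAA or TTCGAA, and the E2F core, which is TTCCCGC or its variants with TTCGCGC and with TTGGCGC and with TTGCCGC in its place, each on either strand. All 4 stretches are on the minus strand: Mki67 at chr7:135716380-135716529, Cdk1 at chr10:69352913-69353062, Top2a at chr11:99024190-99024339 and Pcna at chr2:132253181-132253330. Start sites here are those of RefSeq, while the gene spans in the text are those of GENCODE. For Cdk1 and Pcna the RefSeq start lies inside that span, so part of the Cdk1 stretch and most of the Pcna stretch fall within the gene.
Mki67: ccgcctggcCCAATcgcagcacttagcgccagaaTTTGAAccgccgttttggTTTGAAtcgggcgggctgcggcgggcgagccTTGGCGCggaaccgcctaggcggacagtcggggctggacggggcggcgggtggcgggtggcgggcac
Cdk1: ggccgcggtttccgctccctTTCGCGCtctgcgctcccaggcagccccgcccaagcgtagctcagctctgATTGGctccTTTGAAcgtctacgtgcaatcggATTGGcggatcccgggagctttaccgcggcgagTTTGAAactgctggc
Top2a: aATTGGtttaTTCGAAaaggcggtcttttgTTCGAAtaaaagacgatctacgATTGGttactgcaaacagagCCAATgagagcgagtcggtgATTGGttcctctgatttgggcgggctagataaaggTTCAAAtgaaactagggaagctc
Pcna: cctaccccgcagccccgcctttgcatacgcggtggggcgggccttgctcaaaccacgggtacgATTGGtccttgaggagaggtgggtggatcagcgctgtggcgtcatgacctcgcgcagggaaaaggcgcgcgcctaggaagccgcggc
Over the whole window of 250 bases before to 50 after the start, the CHR letters were present in 4 of the 7 promoters (Cdk1, Mcm2, Mki67 and Top2a), against 19.2% of 32851 promoters of that length. CCAAT was present in 6 of 7, against 37.4% of all, and the E2F core in 3 of 7 (Ccnb1, Cdk1 and Mki67), against 9.57%. In Ccnb1 the E2F match overlaps a CCAAT match. Mki67 and Cdk1 held all 3 kinds of letters, yet only Mki67 passed the test. A match is a description of letters and does not show that a factor binds there.

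The G1 cyclins did not differ between the groups beyond the spread of the libraries. Ccnd1 encodes cyclin D1, the partner of CDK4 and CDK6 that starts G1 progression, and lies on chromosome 7 (144929931 to 144939925, minus strand). Its level was 34.1, 35.6 and 42.6 CPM in control and 35.1, 39.8 and 38.5 CPM in cKO. The cKO values all lay inside the control range. The fitted fold was 1.01 with a 95% interval of 0.851 to 1.20 (edgeR adjusted p = 0.96), an interval that ends below 1.85, the lower bound of the fold of Mki67. Spliced reads gave a fold of 1.01 as well (0.799 to 1.28). Its sign turned in the fits without control replicate 1, control replicate 2 or cKO replicate 2. The gene LTO1, listed as Oraov1 in the table, overlaps Ccnd1 on the other strand and stood at 13.4 ± 1.3 CPM in control and 14.9 ± 0.59 in cKO (SD, n = 3).

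Ccnd2 encodes cyclin D2, a D-type cyclin of granule cell precursors, and lies on chromosome 6 (127125162 to 127152193, minus strand). It stood at 6.96, 12.8 and 8.65 CPM in control and 8.09, 6.87 and 9.93 CPM in cKO, with control replicate 2 the highest of the 6 libraries. The log2 fold change was -0.19 (95% interval -0.70 to 0.32, edgeR adjusted p = 0.70), and 0.07 without control replicate 2. Ccne1 encodes cyclin E1, which with CDK2 starts replication, and lies on chromosome 7 (38097984 to 38107534, minus strand). Its values were 12.4, 10.6 and 10.2 CPM in control and 7.52, 11.9 and 9.27 CPM in cKO. The lowest library was cKO replicate 1, and cKO replicate 2 lay within the control range. Its fitted log2 fold change was -0.22 (95% interval -0.62 to 0.18, edgeR adjusted p = 0.55).

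The replication genes among the members were likewise not called. Mcm2 encodes a subunit of the helicase that licenses replication origins, and lies on chromosome 6 (88883474 to 88898780, minus strand). It stood at 6.75, 4.58 and 5.89 CPM in control and 7.45, 5.13 and 6.54 CPM in cKO, so the ranges overlapped over most of their width. Its fitted log2 fold change was 0.15 (95% interval -0.31 to 0.61, edgeR adjusted p = 0.74), and -0.01 without control replicate 2. Pcna, the sliding clamp of the replicative polymerases, lies on chromosome 2 (132249162 to 132253314, minus strand). Its level was 46.5, 44.2 and 43.3 CPM in control and 46.9, 38.1 and 40.4 CPM in cKO. The highest library was cKO replicate 1, and the other cKO libraries were below all controls. The fitted fold was 0.935 with a 95% interval of 0.798 to 1.10 (edgeR adjusted p = 0.65).

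Top2a encodes topoisomerase II alpha, the enzyme that untangles chromosomes in dividing cells, and lies on chromosome 11 (98992943 to 99024189, minus strand). It had 41, 102 and 84 counts in control and 342, 71 and 153 in cKO, or 0.313, 0.709 and 0.606 against 2.11, 0.481 and 0.939 CPM. The higher cKO mean came mostly from replicate 1, and cKO replicate 2 lay below 2 of the control libraries. The log2 fold change was 1.11 (95% interval -0.20 to 2.43, edgeR adjusted p = 0.31), and it was 0.39 without cKO replicate 1. Its spliced reads were 35, 116 and 73 in the controls and 366, 72 and 142 in the knockouts, with the same library on top. A read that spans several junctions counts at each, so spliced reads can outnumber gene counts.

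The mitotic cyclins and their kinase had low counts, and none of them was called by edgeR. Ccna2 encodes cyclin A2, which acts in S phase and at the entry to mitosis, and lies on chromosome 3 (36564865 to 36572150, minus strand). It had 78, 66 and 82 counts in control and 184, 153 and 248 in cKO, or 0.596, 0.459 and 0.591 against 1.13, 1.04 and 1.52 CPM. All cKO libraries were above all control libraries, and the log2 fold change was 1.17 (95% interval 0.25 to 2.08). The adjusted p was 0.12 by edgeR and 0.044 by DESeq2, which called Ccna2 and Mki67 upward among the members, where it called 6.35% of all tested genes upward and 12.7% in either direction. Spliced reads of Ccna2, which the junction lists assign to a strand, came to 37, 22 and 50 for the controls and 94, 60 and 160 for the knockouts. They did not overlap either (log2 fold change 1.32, 95% interval 0.05 to 2.58, edgeR adjusted p = 0.24). Exosc9, an exosome subunit gene, overlaps Ccna2 on the other strand. It stood lower in each cKO library (9.39 ± 1.3 against 6.99 ± 0.34 CPM, SD, n = 3), as did 13.4% of all tested genes. It was not called (log2 fold change -0.43, edgeR adjusted p = 0.13).

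Ccnb1 encodes cyclin B1, which drives entry into mitosis with CDK1, and lies on chromosome 13 (100778650 to 100786570, minus strand). It had 197, 64 and 27 counts in control and 171, 81 and 229 in cKO, so a control library was second highest of the 6. Its log2 fold change was 0.49 (95% interval -1.05 to 2.04, edgeR adjusted p = 0.75). It was 1.64 without control replicate 1 and 0.016 without control replicate 3, and spliced reads gave 1.16 (edgeR adjusted p = 0.33). Cdk1, the mitotic kinase, lies on chromosome 10 (69335146 to 69352938, minus strand). It had 0, 103 and 14 counts in control and 46, 53 and 70 in cKO, with the highest and the lowest library both among the controls. The count of 0 allows a level of up to 0.0229 CPM in that library, which covers counting error only. Cdk1 reached the count filter in 2 of the control libraries and all 3 cKO libraries. The log2 fold change was 0.39 (95% interval -2.28 to 3.05, edgeR adjusted p = 0.90), an interval that holds both a fall and a rise of several fold. The fitted value was 2.36 with limma-voom, 1.89 with the replicate number as a block, 2.79 without control replicate 2 and -0.20 without control replicate 1. Spliced reads of Cdk1 came to 0, 33 and 15 for the controls and 37, 41 and 69 for the knockouts, and after scaling every cKO library was above every control library, by a narrow margin (lowest cKO library 0.457 CPM, highest control library 0.450). On spliced reads 2 members, Cdk1 and Ccna2, had groups apart in this direction, against 13.1% of genes tested (25.3% in either direction). Of the 10 members 0 passed edgeR's test on spliced reads (1, Ccna2, had an unadjusted p under 0.05), where 5.71% of genes tested changed and 2.89% rose.

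**Figure D2:**
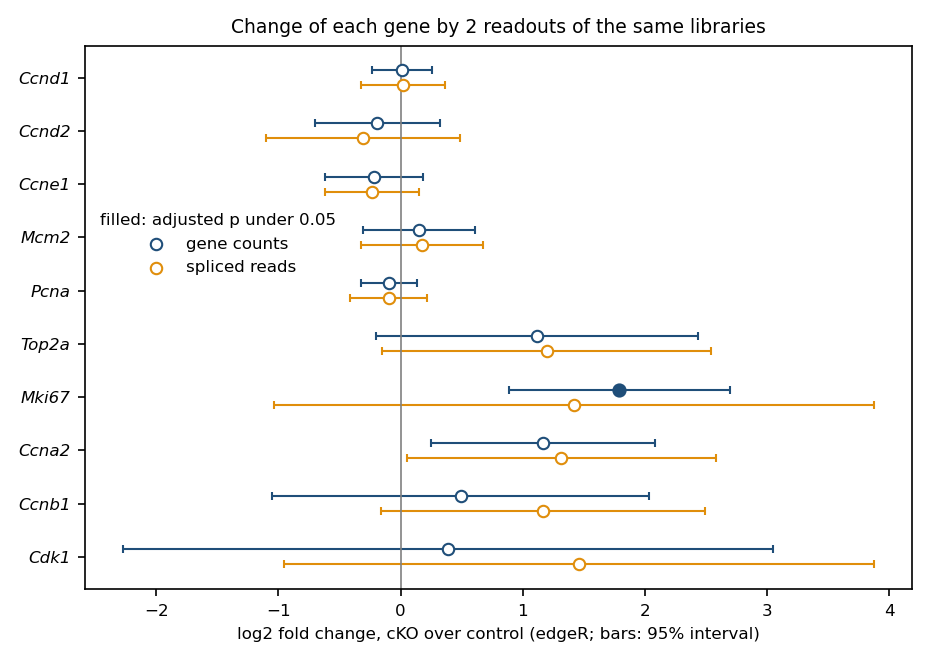
Log2 fold change of each gene in cKO over control with its 95% interval (edgeR), from gene counts and from spliced reads of the same 6 libraries. Only the gene count value of Mki67 is filled (adjusted p 0.026), and the intervals of Ccnd1 and Pcna are narrow around 0 while that of Cdk1 runs from -2.28 to 3.05 for gene counts.

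Precision differed widely among the members. Between control libraries the coefficient of variation was 3.69% for Pcna, 10.6% for Ccne1 and 12.1% for Ccnd1, but 97.3% for Ccnb1 and 142% for Cdk1. The largest values were thus those of members with few counts, but count and spread did not run together throughout. In control Ccna2 had 14.1% at few counts, while Ccnd2, with 911 to 1838 counts, had 31.7%, close to Mki67 at 32.4%. In cKO Top2a (71.3%) and Ccnb1 (42.9%) varied most, while Cdk1 (20.4%), Mki67 (20.7%) and Ccna2 (20.8%) were below Ccne1 (23.0%). RNA was amplified from a small input, so reads are not independent molecules and the counts overstate the number of RNAs sampled.

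Levels per kilobase of exon in control were higher for the members with roles outside mitosis than for the mitotic ones. Pcna was highest at 18.6 ± 0.69 CPM per kb (SD, n = 3), followed by Ccnd1 at 7.95 ± 0.96 and Ccne1 at 4.17 ± 0.44, and these 3 ranges did not overlap. Ccnd2 at 1.01 ± 0.32 and Mcm2 at 0.825 ± 0.16 overlapped each other, as did Ccnb1 at 0.169 ± 0.16 and Ccna2 at 0.134 ± 0.019. The lowest were Top2a at 0.0602 ± 0.023, Cdk1 at 0.0552 ± 0.079 and Mki67 at 0.0503 ± 0.016, whose ranges overlapped. Among 15007 tested genes with an exon length, the control level of Pcna was at percentile 84.6 and that of Mki67 at percentile 5.80. In cKO Mki67 reached 0.174 ± 0.036 CPM per kb, which is still below Mcm2 in control. The 10 members together summed to 109.6 to 112.6 CPM in control and 105.6 to 111.4 in cKO, a sum set by Pcna and Ccnd1.

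No splice junction of the members was called. Junction use within a group of junctions that share a donor or acceptor was tested for 112047 junctions, of which 842, or 0.751%, changed. A change here needs an adjusted p under 0.05 in edgeR's junction test and a shift in the junction's share by 5 points or more. Of 12 such junctions in the members, in Ccne1, Pcna and Ccnd1, 0 were called, and 1 had an unadjusted p under 0.05. It was an unannotated junction of Pcna (chromosome 2, 132249696 to 132249850), with 0, 0 and 0 reads in control and 11, 0 and 23 in cKO, and its share of the group in cKO averaged 0.753% (edgeR adjusted p = 0.16). An unannotated Ccnd1 junction (chromosome 7, 144932838 to 144934015) had 1, 0 and 0 reads in control and 10, 3 and 2 in cKO, a share of 0.228% against 3.58% (edgeR adjusted p = 0.68). Unannotated junctions held 0% to 1.79% of the spliced reads of any member over the 6 libraries, the highest share being that of Ccne1. The other 7 members had no junction that passed the filters of this test.

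Outside the members, 3 listed genes of mitosis rose from low levels, a share not far from that of all genes. No listed replication gene was called in the main edgeR fit. Of 44 tested genes of G2 and mitosis outside the members, 3 rose (6.82%, against 4.03% of all tested genes) and 0 fell (0.00%, against 3.85%), with a median log2 fold change of 0.20, against a median of 0.01 over all genes tested. Cenpa, which encodes the histone variant that marks centromeres, had the firmest rise. It stood at 1.78, 1.58 and 1.12 CPM in control and 8.53, 7.53 and 7.43 CPM in cKO, so the groups lay far apart. The log2 fold change was 2.39 (SE 0.22, edgeR adjusted p = 3.6e-04), and Cenpa stayed called whichever library was dropped. Its spliced reads came to 155, 212 and 106 for the controls and 1007, 689 and 922 for the knockouts (log2 fold change 2.29, edgeR adjusted p = 0.0014).

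Bub1b, which encodes the spindle checkpoint kinase BubR1, had 55, 80 and 47 counts in control and 413, 121 and 318 in cKO (log2 fold change 2.01, SE 0.49, edgeR adjusted p = 0.034). Its cKO replicate 2 stood apart from the other cKO libraries, and the call held only without that library. Dlgap5, a spindle microtubule gene, had 10, 26 and 10 counts in control and 105, 91 and 103 in cKO (log2 fold change 2.51, SE 0.67, edgeR adjusted p = 0.046). Its call was lost whichever library was dropped, while its direction was kept. Both were also called on spliced reads (edgeR adjusted p = 0.033 and 0.030). Of the 44 genes, 39 reached the count filter in all 6 libraries and 5 in fewer than 3 of the controls. The summed level of the 45 listed genes was 197.5 to 216.3 CPM in control and 190.0 to 222.6 in cKO, so the raised genes added little to it.

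Among genes of G1 and the G1/S step, 2 of 24 rose (8.33%, against 4.03% of all tested genes) and 0 fell (0.00%, against 3.85%). Their median log2 fold change was -0.01. Cdk4, the kinase partner of D-type cyclins, stood at 32.3 ± 3.0 CPM in control and 43.4 ± 4.3 in cKO (SD, n = 3; log2 fold change 0.43, edgeR adjusted p = 0.043). Tfdp1, the dimer partner of E2F factors, stood at 31.3 ± 0.27 and 42.5 ± 4.1 CPM (SD, n = 3; log2 fold change 0.44, edgeR adjusted p = 0.026). Both genes were higher in each cKO library, as were 15.0% of all tested genes. Cdk4 stayed called only when control replicate 3 was the library dropped. The call of Tfdp1 was lost without control replicate 2, control replicate 3, cKO replicate 2 or cKO replicate 3.

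Of 21 tested genes of replication licensing, 0 were called in the main edgeR fit, with a median of 0.07. At an unadjusted p under 0.05, 1 was higher and 2 were lower, where 22.1% of all tested genes passed in either direction. DESeq2 called 1 lower, where it called 12.7% of all tested genes. Orc3 was called by edgeR with the replicate number as a block (adjusted p = 0.021) and without a count filter (0.0497). The summed level of this list was lower in each cKO library (243.8 to 265.1 CPM) than in each control library (271.0 to 329.9 CPM). The most abundant of them were Orc3, at a log2 fold change of -0.39 (edgeR adjusted p = 0.055), and Orc2, at -0.13 (adjusted p = 0.56), both subunits of the origin recognition complex. Of 30 tested genes of DNA synthesis, 0 were called by edgeR and 0 by DESeq2, and 1 was higher at an unadjusted p under 0.05; the median was 0.02. The dUTPase gene Dut and the single-strand binding protein gene Rpa1, the most abundant of these, had log2 fold changes of 0.08 and -0.01 (edgeR adjusted p = 0.72 and 0.97). The sign of Rpa1 turned with upper quartile scaling.

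Among genes that hold back the cycle, a pair of p53 targets rose. Of 16 tested CDK inhibitors and brakes, 2 rose (12.5%, against 4.03% of all tested genes) and 0 fell (0.00%, against 3.85%). Their median log2 fold change was 0.33. The summed level of the list was 475.3 to 520.4 CPM in control and 753.2 to 798.6 in cKO, a difference that lay mostly in the 2 called genes. Cdkn1a, the CDK inhibitor p21 and a p53 target, was at 67.0, 72.5 and 72.9 CPM in control and 255.3, 183.5 and 203.8 in cKO (log2 fold change 1.60, SE 0.12, edgeR adjusted p = 1.3e-04). Ccng1, a cyclin G gene and p53 target, was at 98.3, 91.2 and 79.9 CPM in control and 217.1, 205.3 and 197.4 in cKO (log2 fold change 1.20, SE 0.10, edgeR adjusted p = 2.0e-04). Both stayed called whichever library was dropped, and both groups of libraries lay far apart. Of 25 tested cyclin and CDK genes with roles in transcription or in neurons, 0 rose and 3 fell, with a median of 0.01. The share that fell was 12%, against 3.85% of all tested genes, and the share that rose 0.00%, against 4.03%. Cdk16, Cdk5r2, which encodes an activator of the neuronal kinase CDK5, and Ccnh, a subunit of the CDK7 kinase, had log2 fold changes of -0.53, -0.45 and -0.38 (edgeR adjusted p = 0.028, 0.038 and 0.043). The call of Ccnh was lost whichever library was dropped, that of Cdk5r2 unless it was cKO replicate 2, and that of Cdk16 without control replicate 2, control replicate 3 or cKO replicate 3.

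**Figure D3:**
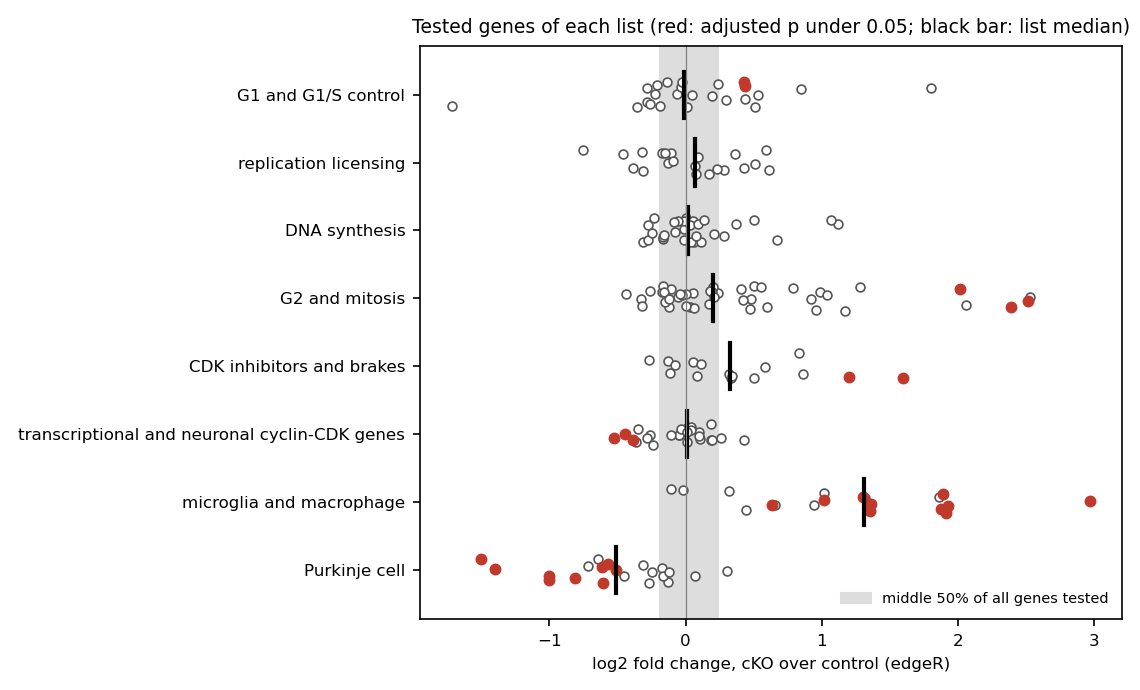
Log2 fold change in cKO over control (edgeR) of every tested gene in 6 cell cycle lists and 2 cell type lists, with called genes in red, the list median as a black bar and the middle 50% of all tested genes in grey. The called mitotic genes lie above 2 on the log2 scale while the medians of the licensing and DNA synthesis lists lie at 0.07 and 0.02.

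The pull-down held RNA of other cell types, some of which can divide, and their markers were read beside the members. Of 20 markers of microglia and macrophages 11 rose (55.0%, against 4.03% of all tested genes) and 0 fell (0.00%, against 3.85%). Their summed level was 77.4, 96.4 and 109.6 CPM in control and 253.9, 150.2 and 179.0 in cKO. None of these markers was at 0 in any library. From highest to lowest, the cKO libraries stood in the order replicates 1, 3 and 2 for the microglial sum, Bub1b and Top2a. The order was 3, 1 and 2 for Mki67, Ccna2 and Ccnb1, 3, 2 and 1 for Cdk1, and 1, 2 and 3 for Cenpa. Among the control libraries it was 3, 2 and 1 for the microglial sum, and 2, 3 and 1 for Mki67, Top2a and Cdk1. For Bub1b it was 2, 1 and 3, for Ccna2 1, 3 and 2, and for Ccnb1 and Cenpa 1, 2 and 3. Orders of 3 libraries can match or differ by accident, and nothing is drawn from them here. The part of microglia in the rise of Mki67 and of the mitotic genes was not tested.

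Of 11 tested genes listed as markers of granule cell precursors 0 rose and 1 fell (9.09%, against 3.85% of all tested genes). The summed level of the list was 701.9 to 808.5 CPM in control and 587.1 to 758.1 in cKO. Atoh1, the factor that defines dividing precursors, had 0 counts in all 6 libraries, so the sum came from the other listed genes. It is a level of those genes and does not show that precursors were present. Of 12 markers of oligodendrocyte progenitors 0 rose and 1 fell (8.33%). Their sum was 219.6 to 277.1 CPM in control and 202.2 to 236.4 in cKO, and none was at 0. Of 16 astrocyte and Bergmann glia markers 1 rose (6.25%, against 4.03% of all tested genes) and 2 fell (12.5%, against 3.85%). Their sum was 5627 to 6269 CPM in control and 4524 to 5082 in cKO. Of 16 endothelial and pericyte markers edgeR and DESeq2 each called 0 (0 had an unadjusted p under 0.05 in edgeR). Their sum was 37.0 to 58.3 CPM in control and 34.7 to 58.4 in cKO. Of 12 granule cell markers edgeR called 0, and DESeq2 2 lower (sums 4788 to 6888 and 4027 to 6896 CPM). Of 12 molecular layer interneuron markers 1 fell (8.33%) and 0 rose (1557 to 1676 and 1058 to 1292 CPM). Of 14 oligodendrocyte markers 1 fell (7.14%) and 0 rose (3327 to 4966 and 2637 to 3868 CPM). Of 21 Purkinje cell markers 9 fell (42.9%, against 3.85% of all tested genes) and 0 rose (0.00%). Their sum was 32376 to 43290 CPM in control and 20322 to 23092 in cKO, with none at 0. The part of these cell types in the values of the members was not tested.

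**Figure D4:**
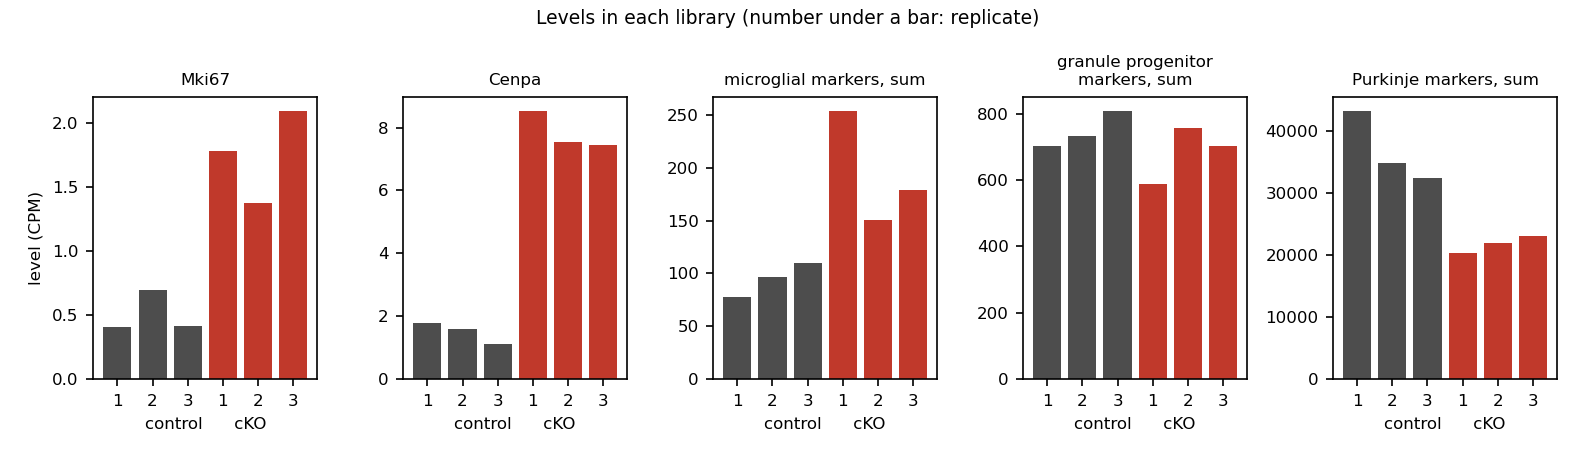
Level in CPM (axes start at 0 and differ between panels) in each library of Mki67, of Cenpa and of the summed markers of microglia, granule cell precursors and Purkinje cells. Mki67, Cenpa and the microglial sum are higher in each cKO library than in each control library. The sum of the genes listed for precursors, which holds no Atoh1 counts, overlaps between groups, and the Purkinje sum is lower in each cKO library.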

How the data were processed

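Ribosome-bound RNA was measured in 6 libraries, 3 control and 3 cKO. TopHat2 2.1.0, HTSeq 0.6.0 and mm10 were used, per the submitters' processing notes. Their annotation and strand setting: not given in the sources used here. Deposited were a matrix of raw gene counts and, per the file headers, TopHat lists with read counts of each junction. Gene counts summed to 140110897 to 160571518 per library and junction reads to 73457422 to 83976095. Nothing says that the animals of a group came from separate litters, so p-values measure the spread between these animals.

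Gene counts went into edgeR 4.0.16 under R 4.3.3, with filterByExpr, TMM scaling and its quasi-likelihood test without covariates, with Benjamini-Hochberg adjustment over all 16067 genes tested and a threshold of 0.05. The F statistic gave standard errors. CPM are on TMM-scaled library sizes. Spliced reads were summed over introns annotated to 1 gene in GENCODE M21 (mm10) and tested the same way. Junctions with at least 10 reads and reads in 2 libraries were tested with diffSpliceDGE against others that share a donor or acceptor. The tests were first tested on simulated data. Members and lists (6 cell cycle, 9 cell type) were chosen with earlier results of these data known. Of 309 listed symbols 306 matched by name, 2 by an older symbol and 1 not. The genes named are the members, Rbm17 and from each cell cycle list up to 4 called genes, or the 2 most abundant where none was called; marker genes taken by the same rule are given only as counts and sums. Exosc9, LTO1, Gm45240, Atoh1 and the Pcna and Ccnd1 junctions were chosen after their values were seen. Alternatives were other scalings and count filters, DESeq2 1.42.0, limma-voom (limma 3.58.1), the replicate number as a block, leaving out each library, leaving out the ribosomal RNA row, and other junction settings.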

Additional observations from a re-analysis of the deposited data

How the results depend on the processing

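The number of members called was 1 under the other scalings and count filters, with limma-voom, without the ribosomal RNA row and with the replicate block. It was 2 with DESeq2 and 0 on spliced reads, and 0 to 1 without a library. Pathway genes called numbered 10, and 15 with DESeq2, 12 with the replicate block and 3 to 8 without a library. Marker genes called numbered 27, and 43 with the replicate block and 15 to 25 without a library. Over all genes the count went from 1265 to 2042 with DESeq2 and to 1734 with the replicate block, and to 530 to 1037 without a library (548 when control replicate 2 was dropped, and 706, 795 and 530 when cKO replicates 1, 2 and 3 were). The number of members called on spliced reads and at junctions was 0 under every alternative run. Replicate numbers did not pair the libraries: same-numbered libraries had deviations correlated at 0.04, -0.06 and 0.02, and not every library correlated best with its own number. With the block Dlgap5 had an adjusted p of 0.056 and Orc3 one of 0.021. Bub1b had an adjusted p of 0.090 with limma-voom, and Dlgap5 one of 0.051 without a count filter. Orc3 had 0.013 with DESeq2 and 0.0497 without a count filter, both under the threshold. Several log2 fold changes turned sign, in part from values near 0. Rpa1 was at 0.0069 with upper quartile scaling. Without a library the lowest and highest values were -0.052 and 0.096 for Ccnd1, -0.37 and 0.073 for Ccnd2, -0.20 and 2.79 for Cdk1, -0.0054 and 0.28 for Mcm2, -0.011 and 0.13 for Dut and -0.13 and 0.077 for Rpa1. On spliced reads they were -0.087 and 0.11 for Ccnd1 and -7.4e-04 and 0.30 for Mcm2. The cause of these changes was not tested. Intervals span several fold for Ccnb1, Cdk1 and Top2a and are narrow for Ccnd1 and Pcna; depth and spread between animals were not separated.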
